A study of Saccharomyces cerevisiae with 21 samples.

Results

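The dependence on growth medium of the transcript changes in budding yeast that lacks Gal11 (also called Med15) and Med3 was measured on 12 of the 21 arrays of the study. These are the 3 arrays each of gal11Δ med3Δ and of the wild type from YPD, a rich medium, and from CSM, a synthetic complete medium. For each of 5449 genes the difference between mutant and wild type was taken in each medium, here called the YPD effect and the CSM effect. The CSM effect minus the YPD effect is called the interaction. A positive interaction means that the mutant stood higher, relative to the wild type, in CSM than in YPD. Cultures were grown at 30 °C and harvested in mid-log phase. The wild type is labelled MATa his3Δ1 leu2Δ0 met15Δ0 ura3Δ0. The mutant is labelled MATα, with the same 4 auxotrophic markers and with kanMX4 cassettes in place of both med3 and med15. A second tail mutant, gal11-myc med3Δ, with 3 arrays in each medium, served for comparison. Its label reads MATa his3Δ1 leu2Δ0 ura3Δ0, with GAL11-13MYC::HIS3MX, med3Δ::URA3 and srb4Δ::kanMX covered by a CEN LEU2 plasmid that carries SRB4. The remaining 3 arrays are of another strain, BY4742, grown in YPD and labelled MATa with a lys2 deletion. They entered only the estimate of the spread on which the errors and p-values rest. Mating type differs between gal11Δ med3Δ and the wild type in both media, and so does the signal of LYS2, as given below. Effects of the tail deletions, of mating type and of LYS2 thus cannot be told apart in either medium. The labels do not say that replicates were separate cultures, so p-values measure only the spread of these arrays, which may be technical, and the number of arrays limits the precision.

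Mediator is the large complex that carries signals from DNA-bound activators to RNA polymerase II. Gal11/Med15 and Med3 are subunits of its tail module, which many yeast activators contact, among them Gcn4, Gal4 and Hsf1. YPD is rich in amino acids, vitamins, phosphate and metals, while a synthetic medium supplies defined amounts of them. Genes for uptake and synthesis of nutrients are under activators that respond to these supplies.

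Each value with an error is a log2 difference of means ± SE (3 arrays in each group), from 1 limma fit with Benjamini-Hochberg adjustment over the 5449 genes. A gene is said to pass at an adjusted p under 0.05, and to be called if the difference is also at least 2-fold. Single arrays are given as the array minus the mean of the wild type arrays of the same medium (log2). GAL11 and PGD1, the gene for Med3, were low in all 6 arrays of gal11Δ med3Δ. GAL11 stood at -6.15, -6.70 and -6.45 in YPD and at -5.54, -5.55 and -5.79 in CSM, with an interaction of 0.81 ± 0.21 (adjusted p = 0.0066). PGD1 had an interaction of 0.25 ± 0.20 (adjusted p = 0.37). LYS2, which encodes a reductase of lysine synthesis, had a YPD effect of -6.50 and a CSM effect of -6.88, although the label of the mutant lists no lysine marker. Mating type genes matched the labelled types in both media, with YPD and CSM effects of 7.39 and 7.17 for MF(ALPHA)1, an α-factor gene, and of -7.65 and -7.87 for MFA2, an a-factor gene. How far the values of deleted or silent genes lie above background was not tested, because the deposited values hold no absolute level.

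Genes of chromosomes II and V moved as wholes. Counts over gene lists are given with these chromosomes and, where leaving them out changes a count of rises or falls, without them. On chromosome II the median YPD effect over 387 genes was 0.03 and the median CSM effect was -0.72, which gave a median interaction of -0.73. On chromosome V the median YPD effect over 259 genes was 0.79 and the median CSM effect was 0.16, with a median interaction of -0.65. The other 14 chromosomes had median interactions between 0.04 and 0.11. The interaction was below 0 in 92.5% of the genes of II and in 91.9% of those of V, against 36.3% to 44.4% on the other chromosomes.

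The shifts were present in every array of the group concerned. In YPD the median of chromosome V was 0.81 in each of the 3 gal11Δ med3Δ arrays, while the 3 arrays of gal11-myc med3Δ had 0.03, 0.00 and 0.02. In CSM the median of chromosome II was -0.64, -0.71 and -0.74 in the gal11Δ med3Δ arrays and -0.75, -0.74 and -0.71 in those of gal11-myc med3Δ. The large shift of chromosome V was thus seen in gal11Δ med3Δ in YPD, and in CSM the medians of the same strain were 0.25, 0.15 and 0.11. On chromosome II the mutants differed from each other by a median of -0.02 in YPD and 0.00 in CSM, so that in CSM the wild type arrays stood apart from both mutants. The number of copies of these chromosomes was not measured, and its part in the shifts was not tested.

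**Figure D1:**
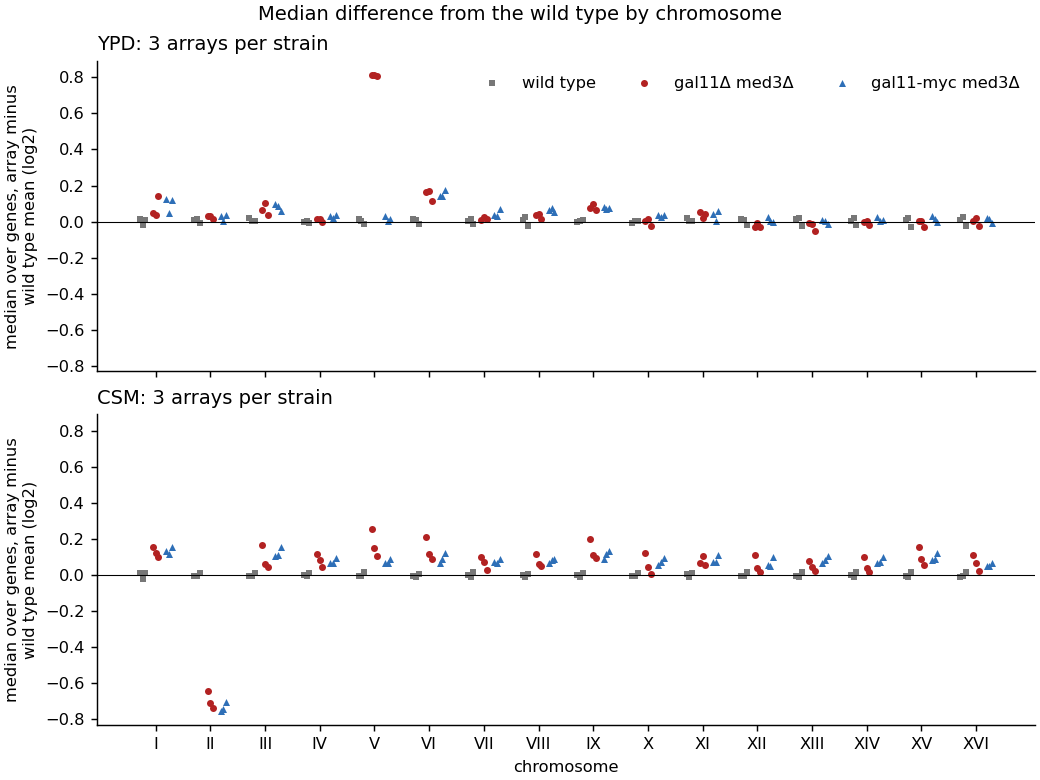
Median over the genes of each chromosome of the value of an array minus the mean of the wild type arrays of its medium (log2), 1 point per array, in YPD (top) and CSM (bottom). Chromosome V lies at 0.81 in the 3 gal11Δ med3Δ arrays in YPD, and chromosome II lies between -0.75 and -0.64 in all 6 mutant arrays in CSM.

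Neither shift began at a step along its chromosome. Both arms of II (median interactions of -0.71 left and -0.74 right) and of V (-0.61 left and -0.65 right) took part. When each chromosome was cut into 10 blocks of neighbouring genes, the median interaction lay between -0.99 and -0.49 in all blocks of II and between -0.86 and -0.43 in all blocks of V. Medians of 15 neighbouring genes ran from -1.06 to -0.10 on II and from -1.08 to -0.31 on V. On the other chromosomes they ran from -0.37 to 0.60, which overlaps the highest stretches of II and V, for II those at its left end. The gene at the left end of II, YBL113C, had an interaction of 0.22, and PAU9, a seripauperin gene at position 4 from that end, one of 0.42. COS2 at the right end had an interaction of -0.02. These genes at the ends of II were picked after their values were seen, and they belong to subtelomeric families with many similar copies.

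**Figure D2:**
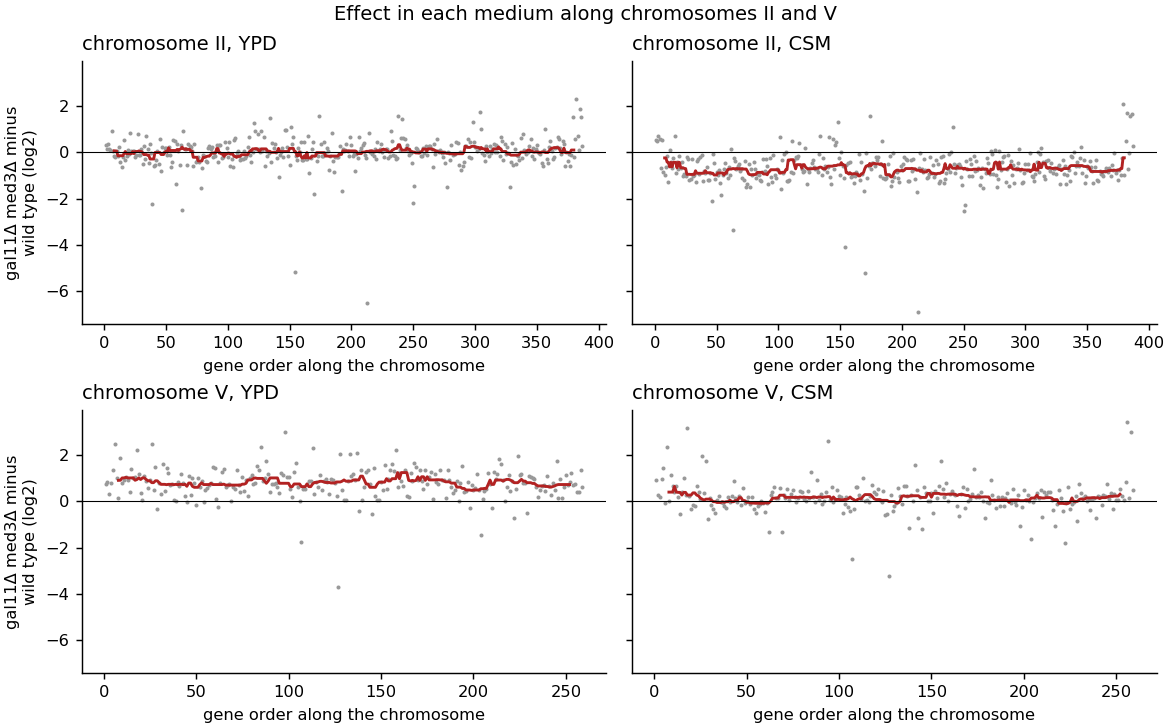
YPD effect (left) and CSM effect (right) of gal11Δ med3Δ for each gene in its order along chromosomes II (top) and V (bottom), as log2 mutant minus wild type, with the running median of 15 genes as a line. The line is near 0 for II in YPD and below 0 along nearly all of II in CSM, while for V it is above 0 throughout in YPD.

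Across the genome, 391 of 5449 genes were called for the interaction (7.18%), 176 higher (3.23%) and 215 lower (3.95%). At any size, 1695 genes passed (31.1%), with 15.1% of all genes rising and 16.0% falling. Of the 215 falls, 109 lay on chromosome II and 47 on V, whereas these chromosomes held 2 and 4 of the 176 rises. Outside II and V, 229 of 4803 genes were called (4.77%), with 170 higher (3.54%) and 59 lower (1.23%). Subtracting the median of each chromosome arm from each array before the fit gave 256 calls (4.7%), 178 higher (3.27%) and 78 lower (1.43%), so the share of rises among the calls depends on how these chromosomes are treated. For comparison, 407 genes (7.47%) were called for the YPD effect and 506 (9.29%) for the CSM effect. The YPD and CSM effects share no arrays, and across genes, which are not independent replicates, they had a Pearson r of 0.644 over all genes and of 0.687 outside II and V.

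**Figure D3:**
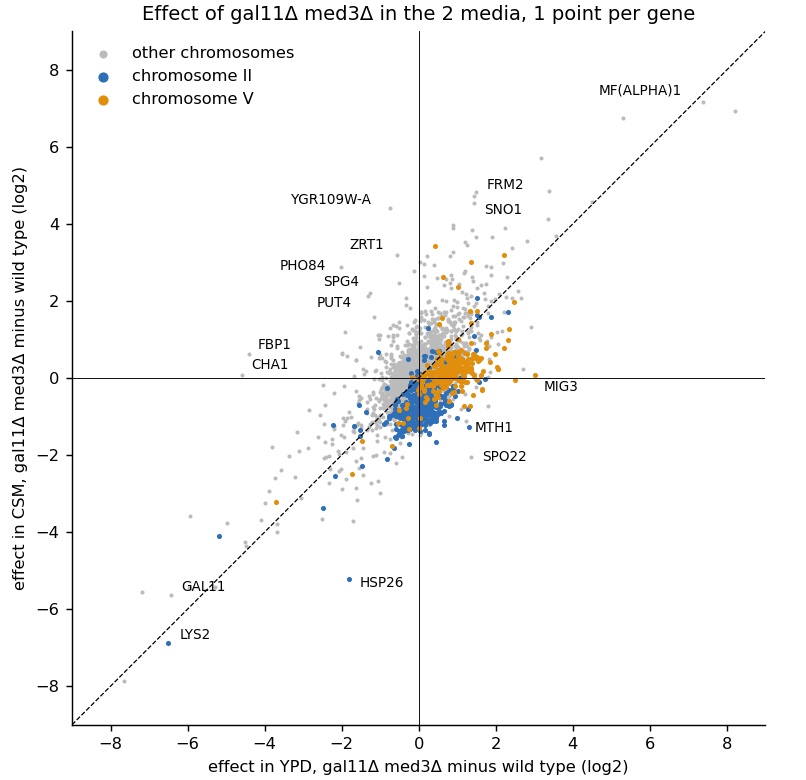
CSM effect against YPD effect of gal11Δ med3Δ (log2), 1 point per gene, with equal effects on the dashed line. Genes of chromosome II lie below the line with YPD effects near 0, genes of chromosome V lie to its right, and PHO84, FBP1, CHA1, YGR109W-A and ZRT1 lie far above it.

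At any size, 46.9% of all genes passed in YPD and 45.5% in CSM. Among the 176 rises, 26 genes changed in opposite directions in the 2 media, 57 changed in the same direction in both, 67 passed in CSM and not in YPD, and 26 passed in YPD and not in CSM. Among the 59 falls outside II and V the corresponding numbers were 11, 8, 17 and 21, and 2 passed in neither medium. Among the called falls on chromosomes II and V, 44 and 5 genes changed in opposite directions.

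The phosphate regulon, which Pho4 induces when phosphate is short, held 7 members with a passing rise of the interaction among 22 measured and none with a fall, against 15.1% and 16.0% of all genes. Its median interaction was 0.33, with a median YPD effect of -0.14 and a median CSM effect of 0.31, beside a median interaction of 0.03 over all genes. PHO84, the high-affinity phosphate transporter, turned direction. The 3 mutant arrays of PHO84 read -1.21, -1.61 and -3.24 in YPD, against -0.01, 0.03 and -0.01 in the wild type. In CSM they read 3.50, 2.75 and 2.41, against 0.19, -0.23 and 0.03. All mutant arrays thus lay below the wild type in YPD and above it in CSM, with an interaction of 4.91 ± 0.55 (adjusted p = 4.9e-06). SPL2, a regulator of low-affinity phosphate uptake, went the same way, at -0.43, -0.57 and -2.45 in YPD and 2.28, 1.08 and 1.36 in CSM, with an interaction of 2.73 ± 0.64. Its mutant arrays did not overlap the wild type in either medium, but in YPD the highest of them lay beside the lowest wild type array, at -0.42. PHM6 (2.04 ± 0.35) and VTC3 (1.26 ± 0.26), a subunit of the vacuolar polyphosphate polymerase, also rose.

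Among genes of zinc and iron uptake, rises were more frequent than falls. ZRT1, the high-affinity zinc transporter, was below the wild type in YPD (-0.63, -0.46 and -0.63, with the wild type between -0.13 and 0.09). In CSM the mutant arrays of ZRT1 reached 3.47, 3.0 and 3.12, with the wild type between -0.02 and 0.04, which gave an interaction of 3.77 ± 0.25 (adjusted p = 1.7e-08). The zinc regulon as a whole had 5 rises and 1 fall among 15 genes and a median interaction of 0.11. Besides ZRT1 it held ZPS1 (2.55 ± 0.26) and the alcohol dehydrogenase ADH4 (0.79 ± 0.12) among the rises, and IZH4 (-1.36 ± 0.42) as the fall, which was lost without the third gal11Δ med3Δ array in YPD (adjusted p = 0.0566). Iron uptake and Aft1 target genes had 10 rises and 2 falls among 31 genes, and 10 rises and no fall among the 28 outside II and V, where 16.9% of genes rose and 8.85% fell. Over all 31 genes the median YPD effect was -0.10 and the median CSM effect 0.33. FIT3, a cell wall protein that retains siderophores, went from a YPD effect of -1.62 to a CSM effect of 0.46. FRE2, a ferric reductase, went from -0.30 to 1.38, and HMX1, the heme oxygenase, from 0.16 to 1.74. Copper and other metal genes had 1 rise and 4 falls among 11, including CUP2, the copper-sensing activator, with -0.72.

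Gluconeogenesis and the glyoxylate cycle had the highest median interaction of the 56 gene lists described, 1.10, with 12 rises and 3 falls among 20 genes and 11 and 2 of the 18 outside II and V. The median YPD effect of the list was 0.16, with 7 members passing above the wild type and 7 below it. Its median CSM effect was 0.57, with 8 above and 2 below. FBP1, fructose-1,6-bisphosphatase, was low in YPD in every mutant array (-4.35, -4.23 and -4.67, against -0.24, 0.56 and -0.33 in the wild type). In CSM the mutant arrays of FBP1 (0.85, 0.51 and 0.49) lay just above those of the wild type (0.42, -0.02 and -0.40), and the CSM effect of 0.62 did not pass (adjusted p = 0.54). Its interaction was 5.03 ± 1.08 (adjusted p = 0.0019). In gal11-myc med3Δ the 3 YPD arrays of FBP1, which enter the same fit, were spread widely at -0.91, -3.19 and -4.36. PCK1, phosphoenolpyruvate carboxykinase, had a YPD effect of -1.52 and a CSM effect of 0.79, with an interaction of 2.32 ± 0.60. SFC1, the mitochondrial succinate-fumarate carrier, followed with -1.92 and 1.20 and an interaction of 3.11 ± 0.76. MLS1, malate synthase, had 2.08 ± 0.71 (adjusted p = 0.034) and missed the threshold in 9 of the 12 fits with 1 array left out (adjusted p up to 0.0981).

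Other genes of carbon use were split. Beside their counts stand 15.1% rises and 16.0% falls over all genes, and 16.9% and 8.85% outside II and V. The falls of the peroxisomal list were near the share of all genes. Hexose transporters had smaller shares of rises and of falls than all genes. CRC1, the mitochondrial carnitine carrier, had no YPD effect that passed (0.02) and a CSM effect of 3.02, and YAT2, a carnitine acetyltransferase on chromosome V, went from 0.63 to 2.62. The carnitine list had 2 rises among 6 genes, these 2, of which CRC1 lies outside II and V. Peroxisomal fatty acid oxidation had 6 rises and 3 falls among 19 (6 and 2 of 18 outside II and V), with rises of 2.40 ± 0.83 for the thiolase POT1 and 1.65 ± 0.39 for the catalase CTA1. POT1 missed the threshold in 7 of 12 fits with 1 array left out (adjusted p up to 0.0927). ADH2, the alcohol dehydrogenase of ethanol use, was high in both media and higher in CSM (YPD effect 3.18, CSM effect 5.72). Hexose transporters had 1 rise, HXT2 with 1.95 ± 0.28, and 2 falls among 19. One of the falls was MTH1, a repressor of hexose transporter genes, whose mutant arrays went from 1.13, 1.33 and 1.20 in YPD to -1.24, -1.10 and -1.0 in CSM. The respiratory chain and ATP synthase had 16 rises and 6 falls among 48 genes. Outside II and V these were 16 and 3 of 43, with a median YPD effect of -0.38 and a median CSM effect of -0.07. COX7 and COX9, subunits of cytochrome c oxidase, went from -0.47 to 0.35 and from -0.52 to 0.30.

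Vitamin genes rose more often than they fell. Of all genes 15.1% rose and 16.0% fell, and of those outside II and V 16.9% rose and 8.85% fell. Of the biotin genes, 5 of 7 rose and none fell, with a median interaction of 0.60. BIO3, an enzyme of biotin synthesis, had a YPD effect of -0.08 and a CSM effect of 1.5, and VHT1, the biotin permease, -0.26 and 1.15. Of the thiamine genes, 10 of 16 rose and 1 fell, and outside II and V 10 of 14 and none. The median interaction was 0.51 over the 16 thiamine genes and 0.55 over the 14. THI7, the thiamine transporter, went from 0.22 to 2.36. RPI1 was low in both media and less so in CSM (-2.62 and -1.52). The vitamin B6 list had 5 rises and 1 fall among 8, and 5 and none of the 6 outside II and V. SNO1, which with Snz1 makes pyridoxal phosphate, stood at 1.56, 1.41 and 1.30 in the mutant in YPD and at 4.80, 4.67 and 4.73 in CSM, and the wild type arrays stayed between -0.23 and 0.16. The interaction of SNO1 was 3.31 ± 0.17 (adjusted p = 1.6e-09), and that of its divergent neighbour SNZ1 was 2.82 ± 0.21. SNZ3 (1.38 ± 0.16) has near-identical copies, and its signal cannot be assigned to 1 of them. For NAD biosynthesis, 4 of 16 genes rose and none fell, among them TNA1, the nicotinic acid permease (-0.25 and 1.16), and BNA2, the first enzyme of the kynurenine pathway (1.90 and 3.65).

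Nitrogen catabolite repressed genes, which GATA factors switch on when good nitrogen sources run out, had 14 rises and 4 falls among 37, and 14 and 3 of the 34 outside II and V. Over all genes 15.1% rose and 16.0% fell, and outside II and V 16.9% and 8.85%. The median effect of the 37 nitrogen genes was 0.46 in YPD and 0.69 in CSM. PUT4, the proline permease, was -1.30, -1.17 and -1.5 in the mutant in YPD, where the wild type read -0.04, 0.71 and -0.66. In CSM the mutant arrays of PUT4 read 2.64, 1.94 and 1.79, and those of the wild type 0.13, -0.15 and 0.02, so the arrays lay on opposite sides of the wild type in the 2 media. DUR3, a urea and polyamine transporter, had an interaction of 1.64 ± 0.11, and DAL2, allantoicase, of 1.22 ± 0.28. CHA1, the serine and threonine deaminase, belongs to the amino acid catabolism list. In that list, which lies outside II and V, 2 of 11 genes rose and 1 fell, near the shares of all genes there. CHA1 was low in the mutant in YPD (-4.49, -4.17 and -5.09, with the wild type at -0.94, 0.47 and 0.47). In CSM the mutant arrays of CHA1 (0.05, 0.17 and 0.04) fell within 0.2 of the wild type mean, and the interaction was 4.67 ± 0.45 (adjusted p = 8.1e-07).

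Among the lists of amino acid synthesis, rises and falls were divided unevenly. The shares to set beside them are 15.1% rises and 16.0% falls over all genes, and 16.9% and 8.85% outside II and V. Lysine genes had 5 rises and no fall among 9, led by LYS20, homocitrate synthase (YPD effect -1.5, CSM effect -0.53), and LYS5 (0.00 and 0.83), in a strain whose LYS2 signal was low in both media. Arginine genes had 5 rises and 1 fall among 11. ARG8, acetylornithine aminotransferase, turned direction, with mutant arrays of -0.66, -0.68 and -0.86 in YPD and 1.45, 1.30 and 1.15 in CSM and an interaction of 2.04 ± 0.19. The second wild type array of ARG8 in YPD read 0.35 and the third -0.39, and the mutant arrays lay below both. Histidine genes had 2 rises and 3 falls among 7, and 2 rises and 1 fall among the 4 outside II and V, since HIS1 lies on V and HIS7 on II. HIS4 was the fall outside them (-1.31 ± 0.38), and HIS5 was a rise (0.59 ± 0.18) that missed the threshold without the first gal11Δ med3Δ YPD array (adjusted p = 0.0525). Sulfur amino acid genes went both ways, with 10 rises and 8 falls among 39 and 9 and 6 of the 35 outside II and V. JLP1, a sulfonate dioxygenase (1.84 ± 0.28), and SEO1, a putative permease (2.21 ± 0.33), were among the rises. MUP3, a low-affinity methionine permease, was a fall, from a YPD effect of 2.71 to a CSM effect of 0.25. Branched-chain genes had 3 rises and 1 fall of 12, aromatic genes 3 and 2 of 12, and the serine, glycine, threonine and proline genes 1 and 5 of 17. Outside II and V these counts were 3 and none of 11, 3 and none of 9, and 1 and 2 of 13. The fall of the branched-chain list, ILV1 on chromosome V, has an interaction of -0.35, and of 0.27 after arm medians are subtracted (adjusted p = 0.056). Amino acid permeases had 3 rises among 21, about the 15.1% of all genes, and no fall, with ALP1, a basic amino acid permease, at 2.11 ± 0.39.

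**Figure D4:**
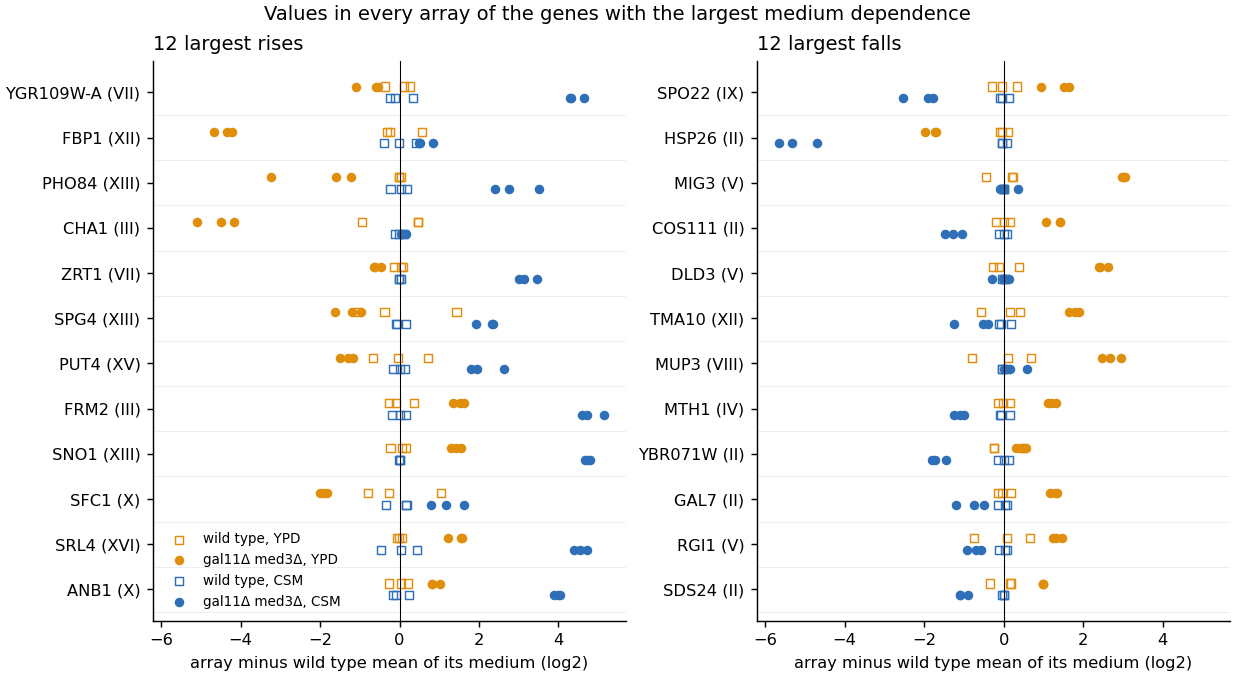
Value of every array of wild type and gal11Δ med3Δ in YPD and CSM for the 12 largest rises (left) and 12 largest falls (right) of the interaction among called genes whose arrays do not overlap between media, as array minus wild type mean of its medium (log2), with the chromosome in parentheses. The mutant arrays of PHO84 run from -3.24 to -1.21 in YPD and from 2.41 to 3.50 in CSM, and those of SPO22 from 0.95 to 1.64 and from -2.52 to -1.76.

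The largest rises outside these groups were of several kinds. YGR109W-A, a gene of the Ty3 retrotransposon, read -0.58, -0.55 and -1.09 in the mutant in YPD and 4.65, 4.33 and 4.28 in CSM, while the wild type lay between -0.38 and 0.35. This was the largest interaction (5.16 ± 0.56), on a probe set marked as able to match other sequences, so that copies of the element cannot be told apart. FRM2, a nitroreductase-like protein, was raised in both media (1.52, 1.62 and 1.33 in YPD, 5.15, 4.72 and 4.59 in CSM). SRL4 showed the same pattern (1.55, 1.58 and 1.21, then 4.39, 4.72 and 4.55). ANB1, the hypoxic form of translation factor eIF5A, went from a YPD effect of 0.88 to a CSM effect of 3.98. It belongs to the heme and low-oxygen list, in which 7 of 23 genes rose and 2 fell, and 7 of 19 and none outside II and V. YHB1, the flavohemoglobin that removes nitric oxide, turned from -2.0 to 0.64, and TIR3, a cell wall mannoprotein of anaerobic cells, from -2.0 to 0.62. SPG4, a stationary phase gene, rose by 3.47 ± 0.88, but its wild type arrays in YPD were spread from -1.06 to 1.43 and its YPD effect did not pass (adjusted p = 0.11).

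Heat shock genes and chaperones had the highest share of falls of the 56 lists. Hsf1 drives many of them. Of 33 genes, 21 fell and 1 rose, with a median interaction of -0.63, a median YPD effect of 0.51 and a median CSM effect of -0.14. Outside II and V, 17 of 28 fell and 1 rose (median -0.62), where 8.85% of all genes fell. SSA1, a cytosolic Hsp70, stood at 1.27, 0.81 and 1.18 in the mutant in YPD and at -0.96, -0.72 and -0.71 in CSM. The wild type arrays of SSA1 in YPD ran from -0.72 to 0.60 and did not overlap those of the mutant. SSA4, an inducible Hsp70 on chromosome V, turned from a YPD effect of 1.17 to a CSM effect of -0.74, and its interaction was -1.91 ± 0.20, or -1.29 after the arm median was subtracted. HSP26, a small heat shock protein on chromosome II, was low in both media, at -1.72, -1.70 and -1.99 in YPD and at -4.69, -5.33 and -5.66 in CSM. Its interaction of -3.43 ± 0.54 became -2.77 after subtraction of the arm median.

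Falls also outnumbered rises among protein turnover genes. Of 38 proteasome genes with their activator RPN4, 17 fell and none rose, from a median YPD effect of 0.27 to a median CSM effect of -0.02, and outside II and V 12 of 33 fell. UBI4, polyubiquitin, went from 1.05 to 0.06. Genes of autophagy and vacuolar proteases had 11 falls and 1 rise among 20, and 7 and 1 of 16 outside II and V, with ATG9 at -1.25 ± 0.25 and PBI2, a protease inhibitor, at -1.15 ± 0.22. ATG8 and ATG14 lie on chromosome II, and their falls (-1.10 and -1.28) did not pass after the arm median was subtracted (adjusted p = 0.16 and 0.07). Msn2 and Msn4 targets had medians below 0 in both media, with a median YPD effect of -0.47 and a median CSM effect of -1.13. The interaction was a fall in 6 of these 36 genes, a share near the 16.0% of all genes, and in 4 of the 33 outside II and V, and a rise in none, among them CTT1, the cytosolic catalase (-0.44 and -2.06), and ALD3, an aldehyde dehydrogenase (-0.49 and -1.70). All 3 falls among the 17 trehalose and glycogen genes (GLC3, TPS1 and NTH2) lay on II or V, none of them passed after arm medians were subtracted, and none of the 14 other members passed. Mitochondrial ribosomal proteins had 24 falls and no rise among 66, or 16 of 58 outside II and V, each small: the lowest of these 58 was -0.69.

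Of 76 ribosome biogenesis genes, 13 rose and 3 fell, and the 3 falls, ENP1 and UTP20 on II and UTP7 on V, lay on the shifted chromosomes. Outside these chromosomes 13 of 71 rose, a share near that of all genes there (16.9%), and none fell, where 8.85% of all genes did. Over all 76 genes the median YPD effect was -0.37 and the median CSM effect -0.06, and none reached a 2-fold interaction. KRR1 (0.87 ± 0.16) and NOP7 (0.73 ± 0.15), assembly factors of the small and the large subunit, were among the rises. Subunits of RNA polymerases I and III had 7 rises and no fall among 20, with RPC34 at 0.77 ± 0.15. The tRNA synthetases and translation factors had 8 rises and 1 fall among 27, none 2-fold, and 8 and none of the 22 outside II and V. Cytosolic ribosomal proteins had 6 rises and no fall among 128, fewer rises than the 15.1% of all genes, with a median interaction of 0.07. RPS9A, a protein of the small subunit, was the member with a 2-fold rise, at 2.95 ± 0.25, from a YPD effect of 0.21 to a CSM effect of 3.16.

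Mating genes were compared between strains that differ in mating type. Pheromone response and cell fusion genes, which are not specific to 1 mating type, had 14 rises and 2 falls among 33, with a median YPD effect of -0.01 and a median CSM effect of 0.49. FUS1, a cell fusion protein, went from 1.49 to 3.66, FUS2 from 0.27 to 1.99, and PRM2 from 0.80 to 3.18. MFA1, an a-factor gene, was less far below the wild type in CSM (-3.59) than in YPD (-5.93), as was HMRA1 (-5.56 and -7.19). SAG1, the α-agglutinin gene, was farther above it in CSM (3.91 and 2.24). HMLALPHA1, an α mating type gene whose probe set can also match the copy at MAT, went the other way, from a YPD effect of 8.20 to a CSM effect of 6.94, with an interaction of -1.27 ± 0.22 (adjusted p = 0.00031). In gal11-myc med3Δ, which shares the mating type of the wild type, the interaction of FUS1 was 1.5 and that of SAG1 0.16. The part of mating type in these interactions was not tested.

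Genes of meiosis and sporulation had 9 rises and 5 falls among 44 (9 and 3 of the 40 outside II and V), not far from the shares of all genes (15.1% and 16.0%). SPO22, a meiosis-specific protein, had the largest fall of any called gene outside II and V. Its mutant arrays read 1.52, 1.64 and 0.95 in YPD, above the wild type (-0.28, 0.34 and -0.05), and -2.52, -1.76 and -1.89 in CSM, below it (-0.08, -0.05 and 0.13). The interaction of SPO22 was -3.43 ± 0.28 (adjusted p = 1.7e-07). SPS1, a sporulation protein kinase, rose by 2.48 ± 0.23 and SPO21, a spindle pole body component of meiosis, by 1.67 ± 0.41.

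**Figure D5:**
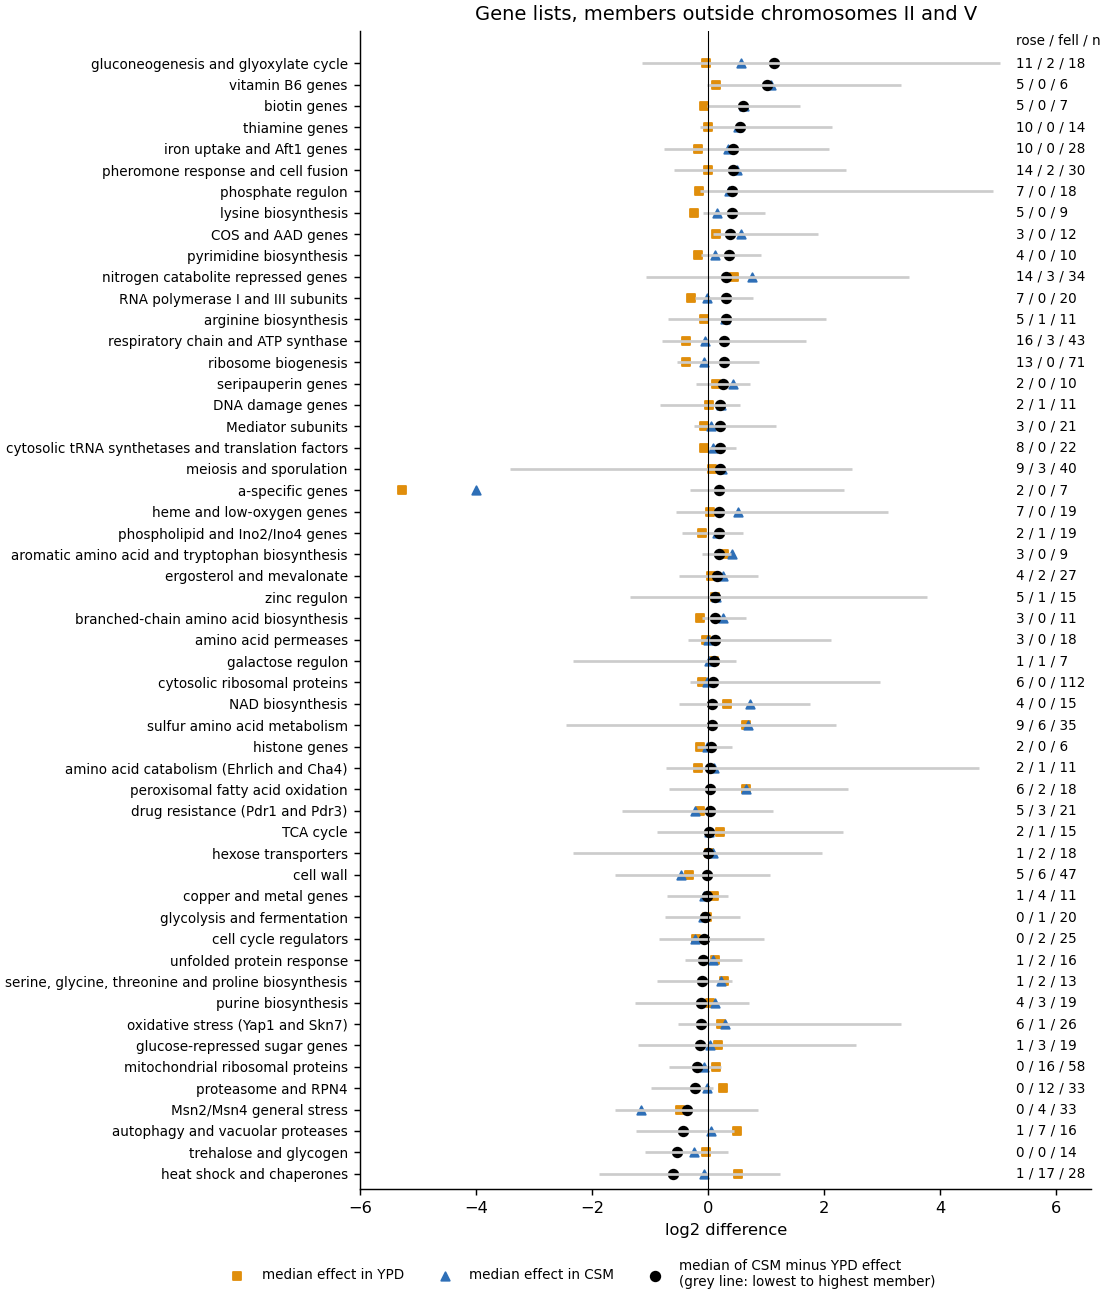
Median interaction (black), median YPD effect (square) and median CSM effect (triangle) of the members outside chromosomes II and V of each gene list with at least 6 such members (log2), with a grey line from the lowest to the highest interaction. Numbers at the right give members that rose, that fell and in all, for example 11, 2 and 18 for gluconeogenesis and 1, 17 and 28 for heat shock.

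The galactose list shows how chromosome II enters a gene group. Of its 11 genes 5 fell and 1 rose, while of the 7 genes outside II and V 1 fell (MTH1) and 1 rose. Over all genes 15.1% rose and 16.0% fell, and outside II and V 16.9% and 8.85%. GAL7, galactose-1-phosphate uridylyltransferase, lies on II and turned from 1.35, 1.29 and 1.18 in YPD to -0.49, -0.74 and -1.19 in CSM. Its interaction of -2.08 ± 0.23 was -1.42 after the arm median was subtracted, and still passed (adjusted p = 0.00023). GAL1, galactokinase, had -1.52 and -0.86 by the same measures. Cell cycle regulators had 8 falls and no rise among 32, but 2 falls among the 25 outside II and V, near the share of all genes there. Falls of the cell wall list went from 12 of 55 to 6 of 47, beside 5 rises in both counts, and included PST1 (-1.61 ± 0.32) and PIR3 (-1.18 ± 0.30). Mediator subunits had 3 rises and 3 falls among 24, near the shares of all genes, and 3 rises and no fall among the 21 outside II and V. The 3 falls were SRB6 and the subunits ROX3 (-0.79) and MED8 (-1.17), all on II. Among Mediator subunits whose interaction rose, GAL11 is itself deleted in the mutant. NUT2, another of them, missed the threshold in 7 of 12 fits with 1 array left out (adjusted p up to 0.1).

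The remaining lists are given by their counts of rises and falls, beside 15.1% and 16.0% of all genes, and 16.9% and 8.85% of those outside II and V. Purine genes had 4 rises and 4 falls of 20, pyrimidine genes 4 and 1 of 12, and the TCA cycle 2 and 2 of 16. Ergosterol genes had 4 and 3 of 28, phospholipid genes 2 and 2 of 20, and glycolysis none and 4 of 23, with 1 fall among the 20 outside II and V. Glucose-repressed sugar genes had 1 and 4 of 23. Oxidative stress genes had 6 and 2 of 28, drug resistance genes 5 and 3 of 22, unfolded protein response genes 1 and 3 of 17, and DNA damage genes 2 and 4 of 14. Outside II and V the falls were fewer in most of these lists: 3 of 19 for purine, none of 10 for pyrimidine, 1 of 15 for the TCA cycle, 2 of 27 for ergosterol and 1 of 19 for phospholipid genes. They were 3 of 19 for glucose-repressed sugar genes, 1 of 26 for oxidative stress, 2 of 16 for the unfolded protein response and 1 of 11 for DNA damage, and the rises were the same in number in each of them. Seripauperin genes had 2 rises and no fall of 13, COS and AAD genes 3 and 1 of 14 (3 and none of 12 outside II and V), and histone genes 2 and none of 10. In the mating type lists, 2 of 7 a-specific and 2 of 4 α-specific genes rose and none fell. QDR1 and QDR2, neighbouring genes for multidrug transporters, went apart, with interactions of 1.11 ± 0.19 and -1.49 ± 0.32.

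The effect of the mutant turned direction, passing in each medium with opposite signs and for the interaction, in 212 genes (3.89%), 93 from low in YPD to high in CSM and 119 the reverse. Of the 119, 67 were on chromosome II and 14 on V, and outside both chromosomes 131 genes turned (2.73%), 93 and 38. Besides PHO84, PUT4, SPL2 and ARG8, the genes that turned upward by the most on their smaller side were SRT1, a cis-prenyltransferase (-1.04 and 1.12), AAD10, a putative aryl-alcohol dehydrogenase (-0.79 and 1.09), YAL063C-A (-1.04 and 1.02) and YDR042C (-1.01 and 1.12). In the opposite direction were SPO22, MTH1, SSA1 and SSA4, and on chromosome II COS111 (1.31 and -1.27), GAL7, SDS24 (0.99 and -1.04) and FUR4, the uracil permease (0.79 and -0.73). These genes of II lie on its right arm, where the median CSM effect was -0.71. The CSM effects of FUR4 and GAL7 (-0.81) were thus near that of their arm, and a turn relative to the arm was not tested.

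Within the shifted chromosomes, some genes stood out from their neighbours. After arm medians were subtracted, 22 genes of II (13 higher, 9 lower) and 15 of V (9 higher, 6 lower) were called. Without subtraction the rises on these chromosomes were FMP23 (1.04) and YBL071C-B (1.01) on II, and PUG1, a porphyrin transporter (3.0), YAT2 (1.99), YER187W (1.64) and DSF1 (1.36) on V. These 6 were listed after their values were seen, apart from YAT2. The largest falls on V were MIG3, a transcriptional repressor, from mutant arrays of 2.98, 3.06 and 3.01 in YPD to 0.37, -0.09 and -0.02 in CSM, and DLD3, a lactate dehydrogenase, from 2.40, 2.63 and 2.43 to -0.30, 0.13 and -0.02. Their interactions after subtraction were -2.31 and -1.93. RGI1, on V, had -2.07 ± 0.69 (adjusted p = 0.031), did not pass after subtraction (adjusted p = 0.14), and was lost in 7 of 12 fits with 1 array left out. On II, YBR071W (-2.11 ± 0.25), COS111 (-2.58 ± 0.42), SDS24 (-2.03 ± 0.35) and AIM3 (-1.88 ± 0.21) were among the falls that passed after subtraction as well. TMA10, on chromosome XII, fell by 2.51 on the log2 scale, from a YPD effect of 1.79 to a CSM effect of -0.73.

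The medium dependence of gal11Δ med3Δ was set against that of gal11-myc med3Δ, which lacks Med3 and keeps a tagged Gal11. By their labels the mutants also differ in mating type, in met15Δ0, in marker genes and in srb4Δ with its plasmid. The parts of Gal11 and of these other differences cannot be told apart. The difference between them, from which the wild type arrays cancel, was called in 138 genes (2.53%), 84 higher (1.54%) and 54 lower (0.991%) in gal11Δ med3Δ. On chromosome II 6 genes were called and the median difference was 0.01. On V 41 of 259 genes were called (3 higher and 38 lower) with a median difference of -0.68, and outside both 91 genes (1.89%), 76 higher and 15 lower. PHO84 differed most, by 3.98 ± 0.55 (adjusted p = 0.00011): the gal11-myc med3Δ arrays read -0.44, -0.55 and -1.48 for YPD, then 0.22, 0.26 and -0.16 for CSM. SNO1 differed by 3.15 (adjusted p = 2.3e-09), with 1.82, 2.0 and 1.61 in YPD and 1.94, 1.95 and 2.02 in CSM in gal11-myc med3Δ. YGR109W-A (3.14) and SRL4 (2.74) were the next. HXT4, a hexose transporter, differed by -2.08 (adjusted p = 0.015), with mutant arrays of -1.79, -1.89 and -1.10 in YPD and -2.99, -3.29 and -3.24 in CSM. Its interaction of -1.58 ± 0.53 missed the threshold in 6 of 12 fits with 1 array left out (adjusted p up to 0.0845). The other low values, MIG3 (-2.37), TIR1 (-2.32) and CEM1 (-1.97), are on chromosome V.

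The difference between the mutants was also counted over the gene lists, with no test between lists. Of the 37 nitrogen catabolite repressed genes, 13 differed upward between the mutants and none downward, against 5.74% and 5.6% of all genes. Among them were DUR3 (2.26) and VBA1 (0.93). Outside II and V, 12 of 34 nitrogen genes differed upward. Upward differences were also found in 6 of 22 phosphate genes, 5 of 11 arginine genes and 5 of 9 lysine genes. The same held for 5 of 8 vitamin B6 genes (4 of the 6 outside II and V) and 4 of 7 biotin genes. None of these lists had a downward difference. For heat shock genes 9 of 33 differed downward and none upward, and outside II and V 8 of 28 (2.71% and 5.95% of all genes there), as in SSA1 (-1.40 ± 0.43, adjusted p = 0.047). For gluconeogenesis 1 of 20 differed upward and 1 downward, although its median difference of 0.51 was close to that of the nitrogen list (0.53), beside 0.00 over all genes. The counts were 2 and 1 of 16 for thiamine, and for ribosome biogenesis none and 3 of 76, those 3 on II or V. A gene that did not pass here is not thereby shown to act alike in the mutants, as the difference for FBP1 was 2.09 with an adjusted p of 0.25. ZRT1 rose in gal11Δ med3Δ by 1.22 more than in gal11-myc med3Δ (adjusted p = 0.003).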

How the data were processed

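The 21 arrays were Affymetrix yeast arrays hybridised with biotin-labelled targets, and groups follow the sample titles. The deposited values are log2 signals, summarised with RMA per the submitters' processing notes (version not given in the sources used here). From the values, each probe set had a median of exactly 0 over the 9 arrays of wild type and both mutants in YPD and again over the 9 in CSM, so absolute levels and the difference of the wild type between media cannot be had. The authors' deposited table holds signed linear fold changes, a score that is never between -1 and 1, made in GeneSpring 11.5.1 per the file headers. It served as an alternative only. For CSM, 100.0% of 10928 of its values were within 0.001 of the values computed here, and for YPD, 2.738% of 9826, with a Pearson r of 0.9959.

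Of 10928 probe sets, 7244 had 1 gene symbol, 1 had several and 3683 had none. The RefSeq gene table (R64) matched 5498 probe sets, which gave 5449 genes after 47 genes with several probe sets were averaged, and the 1746 unmatched probe sets with a symbol held no call for the interaction (0 under limma, 1 at an adjusted p under 0.05). One limma model (limma 3.58.1, R 4.3.3) with 7 group means and 14 residual degrees of freedom gave all contrasts, with Benjamini-Hochberg adjustment over 5449 genes. One of the 7 groups was BY4742 in YPD, which is in no contrast and added only to the estimate of the spread. The fit was tested on simulated data. The median SD of a gene within a group ran from 0.0463 (gal11-myc med3Δ in CSM) to 0.141 (gal11Δ med3Δ in CSM).

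The comparison, the 56 gene lists and the rule for named genes were chosen with earlier results of these data known. The rule names the deleted and marker genes, the 12 largest called rises and falls whose arrays do not overlap, the 8 genes each way that turn direction by the most, up to 4 passing members of each list, the leading genes of the most shifted arm and the 4 largest differences each way between the mutants. YBL113C, PAU9, COS2, FMP23, YBL071C-B, PUG1, YER187W, DSF1, UTP7 and SRB6 lie outside it and were named after their values were seen. In YPD, deviations of wild type and gal11Δ med3Δ arrays of the same replicate number had correlations across genes of 0.177, 0.514 and 0.441. Between different numbers they ran from -0.456 to 0.191, the highest for wild type array 1 with mutant array 2. In CSM the same numbers had -0.097, -0.017 and -0.215. The numbers were therefore not taken as pairs. Alternatives were the replicate block, array centring, array weights, robust moderation, only the arrays compared, single probe sets, a 1.5-fold threshold, subtraction or omission of chromosome arms and each array left out in turn. Promoter sequences were not used here.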

Additional observations from a re-analysis of the deposited data

Results flagged for a closer look

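The difference between the effects of gal11Δ med3Δ in the 2 media was itself tested, and 391 genes were called for it. The medium dependence differed between the 2 mutants in 138 genes, again by a test of the difference. Of the genes named for this contrast, 4 were higher in gal11Δ med3Δ: PHO84 by 3.98, SNO1 by 3.15, YGR109W-A by 3.14 and SRL4 by 2.74 on the log2 scale. The 4 lower ones were MIG3 with -2.37, TIR1 with -2.32, HXT4 with -2.08 and CEM1 with -1.97, of which MIG3, TIR1 and CEM1 lie on chromosome V. The median interaction of chromosome II was -0.73. In YPD its median was 0.03, 0.03 and 0.01 in the gal11Δ med3Δ arrays, within the range of the other 14 chromosomes. In CSM it was -0.64, -0.71 and -0.74, and the gal11-myc med3Δ arrays had -0.75, -0.74 and -0.71. The difference between the media was not tested. Chromosome copy number was not measured, and its part was not tested.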

How the results depend on the processing

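Over the alternatives run, 251 of 264 comparisons of the summary results stayed within 1.5 times the reported count or kept direction and size, and 13 moved. The 391 calls for the interaction were 256 with arm medians subtracted, 220 without the genes of chromosomes II and V (chosen after seeing the data) and 948 at 1.5-fold. The 176 rises were 414 at 1.5-fold. The 215 falls were 534 at 1.5-fold, 135 without the arm with the largest median, 78 with arm medians subtracted and 53 without II and V. Without II and V, the genes higher in YPD numbered 156, those lower in CSM 119, and the calls between the mutants 87, of which 13 were lower (20 with arm medians subtracted). Fewer genes of shifted chromosomes are tested or counted in these settings by construction. With the replicate block the interaction had 392 calls, and with a block in YPD only 403. The block moved no count by more than 1.5 times.

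Leaving out 1 array at a time gave 358 to 459 calls for the interaction (157 to 212 higher, 193 to 247 lower), 391 to 448 in YPD (241 to 270 and 141 to 179), 495 to 517 in CSM (258 to 291 and 213 to 259) and 124 to 190 between the mutants (74 to 120 and 45 to 70). The median of chromosome II ran from -0.75 to -0.69 and that of V from -0.66 to -0.61. Of the values of named genes, 5095 kept direction and side of the threshold, 295 fell below it, 6 rose above it and 12 changed sign. With arm medians subtracted the sign changed in LYS2 (0.27), NTH2 (0.064), ILV1 (0.27), TYR1 (0.0116), PDX3 (0.0004), PGI1 (0.265) and CHO1 (0.0013), all genes of II or V. For STE2, the values with 1 array left out ran from -0.5183 to 0.0776, with a change of sign without gal11Δ med3Δ CSM replicate 2 (0.0005) or 3. For STE3 they ran from -0.1719 to 0.2657, with a change of sign without replicate 2 of the wild type in either medium or replicate 3 of gal11Δ med3Δ in YPD. The cause was not tested.

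Values centred within each medium leave no absolute level, so the limits set by background signal cannot be given. The planned description of promoter motifs was not run, because no promoter sequence was used here.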
